A study of Mus musculus with 4 samples.

Results

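The osteoclast genes described here are *Acp5*, *Ctsk*, *Calcr*, *Oscar*, *Atp6v0d2*, *Tnfrsf11a*, *Nfatc1*, *Clcn7*, *Tcirg1* and *Ostm1*, a set chosen by name for bone resorption and osteoclast differentiation. Every non-control probe annotated with one of these names was taken, which gave 14 probes for 10 genes among the 39429 probes and 30028 gene names on the array. RNA was from mouse cochleae, with 1 array for each of 4 groups of the B6J background at 5 weeks of age. The groups were untreated wild-type mice, wild-type mice given diphtheria toxin (DT) at 50 μg/kg at 7 days before dissection, untreated mice of the OHC-TRECK line (called *Prestin*-*hDTR* in the study, transgenic mice below) and transgenic mice given the same dose. In the transgenic line, a fragment of the prestin gene (*Slc26a5*) with its promoter drives a human heparin-binding EGF-like growth factor, which serves as DT receptor on outer hair cells (OHCs), and the line goes back to 1 founder. Per the labels, the RNA on each array was pooled from both sexes, with 8 samples per group from 4 females and 4 males. The methods count 8 cochleae per mouse and not 8 mice, so the number of animals behind 1 array is not settled. The comparison asks whether osteoclast genes rose with macrophage genes or fell with bone genes 7 days after the toxin.

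Osteoclasts are large cells with several nuclei that form by fusion of precursors of the monocyte and macrophage lineage and dissolve bone. The cytokine RANKL (*Tnfsf11*) binds its receptor RANK (*Tnfrsf11a*) on these precursors, osteoprotegerin (*Tnfrsf11b*) captures RANKL before it binds, and the colony-stimulating factor 1 receptor (*Csf1r*) keeps the precursors alive. Signals from RANK and from receptors that use immunoreceptor adaptors induce the transcription factor NFATc1, which drives the genes of resorption. A proton pump and a chloride transporter then acidify the space under the cell, where cathepsin K digests collagen. The cochlea sits in the dense otic capsule, a bone known for very little remodelling.

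The promoters of *Acp5* and *Ctsk* are shown because both genes encode secreted enzymes that mark osteoclasts, are known targets of NFATc1, and differed from each other in how far their signals moved. *Acp5* has 3 start sites in the RefSeq table (GRCm38.p6, chromosome 9, minus strand), and the 250 bases before each lie at chr9:22130599-22130848, chr9:22131866-22132115 and chr9:22135747-22135996. *Ctsk* has 1, with the 250 bases at chr3:95498960-95499209 on the plus strand. Sequences run 5′ to 3′ on the strand of the gene, and capitals mark the NFAT core GGAAA or its reverse complement TTTCC.
Acp5 start site 1: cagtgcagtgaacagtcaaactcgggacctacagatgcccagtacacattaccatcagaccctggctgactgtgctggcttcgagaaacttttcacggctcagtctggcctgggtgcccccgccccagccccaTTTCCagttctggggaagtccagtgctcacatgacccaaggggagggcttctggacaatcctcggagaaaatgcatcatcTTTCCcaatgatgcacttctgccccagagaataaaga
Acp5 start site 2: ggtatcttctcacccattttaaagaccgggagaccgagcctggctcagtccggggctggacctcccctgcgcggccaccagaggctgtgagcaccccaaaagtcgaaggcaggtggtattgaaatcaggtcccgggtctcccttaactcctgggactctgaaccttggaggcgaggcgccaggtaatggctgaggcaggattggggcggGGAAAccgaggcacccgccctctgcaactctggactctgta
Acp5 start site 3: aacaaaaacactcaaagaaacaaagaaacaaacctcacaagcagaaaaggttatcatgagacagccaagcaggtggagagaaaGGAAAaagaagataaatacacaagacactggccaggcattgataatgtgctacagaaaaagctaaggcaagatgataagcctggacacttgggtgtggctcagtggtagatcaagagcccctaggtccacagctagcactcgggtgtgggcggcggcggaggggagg
Ctsk: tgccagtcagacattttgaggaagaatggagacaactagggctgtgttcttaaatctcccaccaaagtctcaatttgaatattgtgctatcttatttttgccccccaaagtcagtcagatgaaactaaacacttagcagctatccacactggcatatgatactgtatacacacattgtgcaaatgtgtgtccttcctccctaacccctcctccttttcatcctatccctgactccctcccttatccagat
The windows of *Acp5* held 2, 1 and 1 NFAT cores, and that of *Ctsk* held 0. The core is short, and 55.6% of 32851 RefSeq promoter windows of the same length had at least 1 on either strand, as did 7 of the 14 windows found for the genes other than *Nfatc1* and *Atp6v0d2* (50.0%). AP-1 sites written as TGANTCA were in 0 of the 14 windows and in 6.75% of all windows. The PU.1 core GAGGAA, which overlaps the NFAT core when another A follows, was in 3 of 14 (21.4%), 2 copies of it in the *Ctsk* window, and in 23.3% of all windows. The partial E-box pattern CANGTG was in 10 of 14 (71.4%) and in 39.5% of all windows. The 14 windows belong to 8 genes, 7 of them with this pattern, and the windows of *Tcirg1* start sites 2 and 3 overlap, so they are not independent. These matches describe letters in the windows and say nothing of binding.

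Signals are given as the log2 of the deposited intensity over the 75th percentile of the same array, called the normalized signal, so that 0 is the level of that percentile. Values for the 4 arrays are given in the order wild-type, wild-type with DT, transgenic, transgenic with DT wherever no group is named. This percentile lay at an intensity between 2740 and 3177. The software marked between 62.3% and 70.6% of probes as well above background. Where a probe was so marked on only 1 of 2 arrays, its fold is a lower bound against the lowest normalized signal marked on the other array, or the probe's own if higher, and is written as at least N-fold. With 1 array per group there is no replicate within a group, no test was made, and the precision is limited by the number of arrays. The median SD between spots of the same probe was at most 0.071 on the log2 scale, which covers spots and not mice. OHC marker genes, the target of the toxin, were called down for 5 of 6 in transgenic mice when those with DT were set against those without. Their median log2 ratio was -2.56, and 1.39% of all gene names were called down in this contrast. In RNA of a whole organ, fewer cells of a type and less RNA per cell cannot be told apart.

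Among the 10 osteoclast genes, *Acp5* was the one whose signal differed clearly between arrays, and it was lower in both transgenic groups with or without the toxin. Signal well above background on all 4 arrays was found for 11 probes of 8 genes. The other 7 of these genes, at their brighter probe, stayed within 1.07-fold to 1.32-fold from the lowest to the highest array. For *Atp6v0d2* and *Calcr*, 1 probe each was above background on the untreated wild-type array and on no other, and the second *Atp6v0d2* probe was above background on 0 arrays. Both are among the genes most used to define mature osteoclasts, and on 3 of the 4 arrays they were not measurable, so the set is described gene by gene and not as a measure of osteoclasts.

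At the 2-fold call, 3 of 10 osteoclast genes were down in transgenic mice without DT against untreated wild-type mice. There, 2.44% of all gene names were called down. The 3 were *Acp5* and, by lower bounds, *Atp6v0d2* and *Calcr*. Both of the latter were above background on the untreated wild-type array alone, so they could only come out lower. Of the 3, *Acp5* alone was measured on both arrays. Against the untreated wild-type array, 0 were called down in wild-type mice with DT (background 1.12%). For transgenic mice with DT the count was 1, *Acp5* (background 2.01%). In transgenic mice with DT against wild-type mice with DT, 1 of 8 genes compared was called down, again *Acp5* (background 1.93%). DT against no DT within the transgenic line gave 0 of 8 down (background 1.39%). None of the osteoclast genes was called up, a count of 0 in each of these 5 comparisons, where in the same order 1.03%, 1.55%, 2.13%, 1.55% and 2.76% of all gene names were called up. The first 3 comparisons share the untreated wild-type array. The count of 3 was 1 with normexp background correction or with only probes above background on all arrays, and without the floor on dim signals *Atp6v0d2* and *Calcr* took the counts in wild-type and transgenic mice with DT to 2 and 3.

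**Figure D1:**
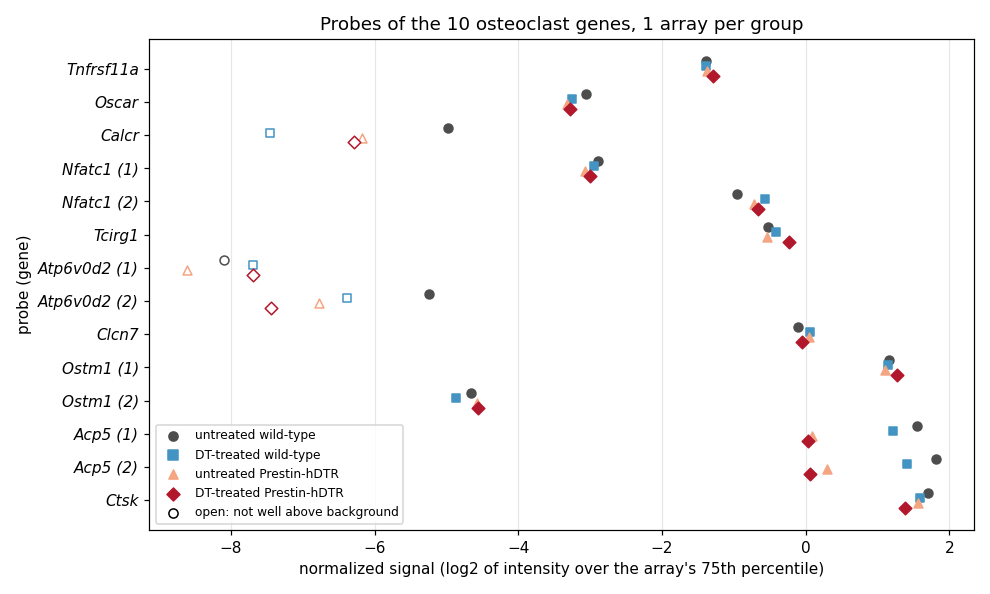
Normalized signal (x axis, log2 of intensity over the 75th percentile of the array) of the 14 probes of the 10 osteoclast genes (y axis), with 1 symbol per array and open symbols for signals not well above background. Numbers in brackets tell apart the probes of one gene. The 2 *Acp5* probes split into a wild-type pair and a lower transgenic pair, and the symbols of the other probes above background on all arrays nearly coincide.

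*Acp5* encodes tartrate-resistant acid phosphatase, the classic stain for osteoclasts, which some macrophages also make. Its brighter probe (mm9, chr9:21931190-21931249, minus strand) had an intensity of 9629 in wild-type mice without DT and 8400 with DT, and of 3723 in transgenic mice without DT and 3259 with DT. The second probe (chr9:21931175-21931234) shares 45 bases with the first, so that it is a repeat of nearly the same stretch, and it had intensities of 7993, 7400, 3219 and 3196 in the same order. On both probes the untreated wild-type array was highest, the DT-treated wild-type array came next, and both transgenic arrays were far below.

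In normalized signal the brighter *Acp5* probe gave 1.81, 1.40, 0.29 and 0.06, a fold of 2.87 between the genotypes without DT and of 2.53 with DT. The second probe gave 1.54, 1.22, 0.08 and 0.03, with folds of 2.75 and 2.27. These 2 genotype contrasts share no array. The change with DT inside a genotype was smaller on the log2 scale, -0.41 and -0.32 for the 2 probes in wild-type mice and -0.23 and -0.05 in transgenic mice. The last of these is less than the median SD between spots, so the order of both transgenic arrays on the second probe is not settled by the signal.

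A gap of at least 2-fold between both wild-type and both transgenic arrays, a criterion set after these values were seen, was shown by 16 of the 23688 probes above background on all arrays (0.0675%) in the downward direction. Both *Acp5* probes were among them, with gaps of 2.16-fold and 2.20-fold between the lower wild-type and the higher transgenic array. The other probes included *Ppbp* and *Treml1* of platelets and megakaryocytes, *Camp* (2 probes), *Ngp*, *Cebpe*, *Fpr2* and *Chil3* of granulocytes and their precursors, and *Prg2* and *Ear10* of eosinophils. *Rps15a-ps6*, the RIKEN clone gene *4921504E06Rik* and 2 transcripts known by an identifier alone made up the rest.

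Markers of some blood cells also differed with the genotype. Of 14 listed neutrophil genes, 13 were above background on all arrays, and 10 of these were lower in both transgenic arrays than in both wild-type arrays, as were 3 of 4 megakaryocyte genes and 13.7% of all gene names. Summed over the 13 neutrophil genes, the signal relative to the 75th percentile was 39.3 in wild-type mice without DT and 61.9 with DT, and 14.1 in transgenic mice without DT and 24.5 with DT. Such sums of linear signal rest mostly on the brightest genes. In untreated wild-type mice the brightest neutrophil gene had a normalized signal of 4.34 and the list a median of -0.40. The sum over the 4 megakaryocyte genes was between 1.64 in transgenic mice without DT and 4.50 in wild-type mice with DT. Both transgenic arrays were the lower for 0 of 9 erythroid and 2 of 6 B cell genes. In the contrast of transgenic with wild-type mice, both without DT, the erythroid median log2 ratio was 0.09 and the B cell median -0.29. With DT against without in wild-type mice these lists had medians of 1.28 and 0.89. Between the genotypes with DT, the erythroid median was -1.01 and the B cell median -1.07, beside -1.42 for neutrophil genes. Called down there were 6 of 11, 5 of 7 and 10 of 14 genes (background 1.93%). None of the defining neutrophil markers was at background on all arrays (0 of 14). Within a genotype the neutrophil genes were higher with DT, 14 of 14 in wild-type and 13 of 13 in transgenic mice with a median log2 ratio of 0.72 in each. Of all gene names, 7999 of 20172 in wild-type and 9873 of 19991 in transgenic mice were higher with DT. The 2 *Acp5* probes had log2 ratios of -0.41 and -0.32 with DT in wild-type mice. In transgenic mice they had -0.23 and -0.05, the latter less than the median SD between spots. The part of any of these cells in the *Acp5* difference was not tested.

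**Figure D2:**
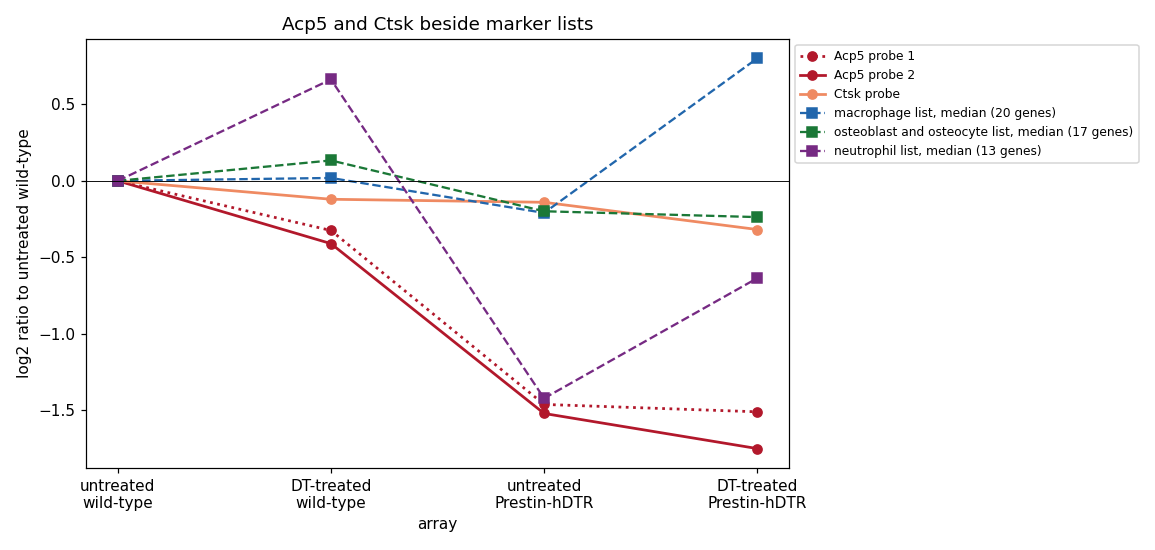
Log2 ratio to the untreated wild-type array (y axis) on each of the 4 arrays (x axis) for both *Acp5* probes (solid, the brighter; dotted, the other), the *Ctsk* probe, and the medians of the macrophage, bone and neutrophil lists (dashed, genes above background on all arrays). *Acp5* reaches -1.52 and -1.75 on the transgenic arrays on its brighter probe, and *Ctsk* stays above -0.33.

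*Ctsk*, the collagen-degrading protease of osteoclasts, had normalized signals of 1.71 in wild-type mice without DT and 1.59 with DT, and of 1.57 in transgenic mice without DT and 1.39 with DT (mm9, chr3:95313165-95313224, plus strand). It took the same order as *Acp5* with a much smaller span of 1.25-fold between the highest and the lowest array, close to the median span of all gene names, 0.23 on the log2 scale, against 0.32 for *Ctsk*. The DT-treated wild-type and untreated transgenic arrays differed by less than the spot SD. Related cathepsins that serve lysosomes in many cells went the other way in transgenic mice with DT, where *Ctsb* was 0.45 and *Ctsl* 0.27 above the mean of the other 3 arrays on the log2 scale, against -0.23 for *Ctsk*.

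The genes of acid secretion differed little between arrays. *Tcirg1*, the a3 subunit of the proton pump through which osteoclasts acidify bone, had normalized signals of -0.53, -0.41, -0.54 and -0.23. The last array was the highest, by 1.14-fold over wild-type mice with DT and 1.24-fold over transgenic mice without DT. The probe spans 133 bases of mm9 (chr19:3896678-3896810, minus strand), more than its own length, so its position includes a gap. *Clcn7*, the chloride and proton exchanger of the resorbing membrane, gave -0.10, 0.06, 0.05 and -0.05 in that order, a span of 1.12-fold. *Ostm1*, the partner subunit that ClC-7 needs, gave 1.16, 1.14 and 1.26 on the first, second and last arrays at its brighter probe and was lowest on the third, with a span of 1.12-fold as well. Its second probe, over a different stretch and close to background, lay between -4.86 and -4.56.

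These 3 genes are also used in lysosomes outside bone, and losing any of them causes osteopetrosis. *Atp6v0d2*, the d2 subunit of the pump and a factor in osteoclast fusion, differs from them in being largely restricted to osteoclasts and a few other cells. Its normalized signal was -5.24 in untreated wild-type mice, near the floor, and at least 2.24-fold lower in untreated transgenic, at least 1.18-fold lower in DT-treated wild-type and at least 1.15-fold lower in transgenic mice with DT. The bounds differ because the lowest measurable level differed, from -6.40 on the untreated transgenic array to -5.44 on the DT-treated transgenic array, and they give no order among these 3 arrays. The widely used subunit *Atp6v0d1* held between 2.41 and 2.53 on the 4 arrays (named after its values were seen). Of 16 genes related to the members, 0 were called in either direction in any of the 5 comparisons. Between 1.03% and 2.76% of all gene names were called per direction there, so a count of 0 among so few genes is near the background.

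Receptors and the master transcription factor showed no common shift. *Tnfrsf11a* (RANK) had normalized signals of -1.39, -1.39, -1.37 and -1.29, a span of 1.07-fold, the narrowest among the brighter probes of the set. *Oscar*, an activating immunoglobulin-like receptor that binds collagen and signals through the adaptor FcRγ, was dim, at -3.05, -3.25, -3.32 and -3.28. Its untreated wild-type array was the highest, by 1.20-fold over transgenic mice without DT, or 0.27 on the log2 scale, where spots of the same probe at this level had a median SD of up to 0.16. *Calcr*, the receptor through which calcitonin stops resorption, had -4.98 in untreated wild-type mice and was at least 2.28-fold lower in untreated transgenic, at least 1.42-fold lower in DT-treated wild-type and at least 1.38-fold lower in transgenic mice with DT, where its signal was not well above background.

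*Nfatc1* was measured by 2 probes on chromosome 18. The brighter gave -0.96, -0.56, -0.72 and -0.66 in the same order of groups, lowest in untreated wild-type mice, and the dimmer gave -2.89, -2.95, -3.07 and -3.01, highest there. The probes thus disagree in direction, with spans of 1.32-fold and 1.13-fold, and no direction is given for the gene. The related factor *Nfatc3* was 0.28 below the mean of the other 3 arrays in transgenic mice with DT.

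A wider list of 28 genes of osteoclast formation and function, the 10 genes left out, was measured for 25, since *Tnfsf11* (RANKL), *Spi1* and *Src* were well above background on 0 arrays. With DT against without in transgenic mice, 5 of 24 genes compared were called up and 0 down, where 2.76% of all gene names were called up and 1.39% down. The 5 were *Fos*, *Fcer1g*, *Tyrobp*, *Trem2* and *Irf8*. For transgenic mice with DT against wild-type mice with DT, 3 of 24 were up (*Fos*, *Fcer1g* and *Trem2*) and 1 down (*Mmp9*, a bound). The background there was 1.55% up and 1.93% down. Against untreated wild-type mice, 2 of 25 were up (*Fos* and *Fcer1g*) and 0 down (background 2.13% and 2.01%). Between the genotypes without DT, 0 of 25 were called up and 1 down in transgenic mice, *Mmp9* by a bound (background 1.03% and 2.44%). With DT against without in wild-type mice, 0 of 25 were called up and 0 down (background 1.55% and 1.12%). The median log2 ratio of the list was 0.15 in transgenic and 0.06 in wild-type mice, beside medians within 0.04 of zero for all gene names.

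*Fos*, a component of AP-1 that osteoclast precursors require and that many cells induce rapidly, had normalized signals of -2.88, -2.86, -2.89 and -1.16. Only the last array stood apart, by 1.73 on the log2 scale over transgenic mice without DT. *Fcer1g*, which encodes the FcRγ adaptor, gave 0.54, 0.72, 0.26 and 1.79, and the same array was again the highest. *Trem2*, a receptor that signals through DAP12, and *Tyrobp*, which encodes DAP12, were 1.16 and 1.19 higher on the log2 scale with DT than without in transgenic mice, while DT moved them by -0.08 and 0.03 in wild-type mice. *Irf8*, a repressor of osteoclast formation that macrophages keep, had normalized signals of -1.67, -1.48, -2.12 and -1.05. It was thus 1.07 higher with DT than without in transgenic mice, whose untreated array was the lowest, and 0.43 higher than in wild-type mice with DT. *Tyrobp* and *Irf8* are named for their call, after their values were seen. *Fcer1g*, *Tyrobp*, *Trem2* and *Irf8* are all well known in macrophages and microglia. A signal at least 2-fold above all 3 other arrays in transgenic mice with DT was found for *Fos* and *Fcer1g*, 2 of 23 genes, and for 0 of the 8 osteoclast genes above background on all arrays, where 0.469% of such probes had it. A signal 2-fold below all others was found for 0 of either set (0.198% of such probes).

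Of the cytokine system, *Tnfrsf11b* (osteoprotegerin), which the cochlea is known to make in large amounts, had normalized signals of 3.17, 3.39, 3.56 and 4.04, and was 0.65 higher on the log2 scale in transgenic than in wild-type mice given DT. *Csf1r* gave 2.92 on the second, 2.78 on the third and 3.40 on the last array, 0.41 above untreated wild-type mice, and *Csf1*, its ligand, gave -0.51, -0.74, -0.73 and -0.35. Both were highest in transgenic mice with DT, with no call at 2-fold. *Itgb3*, the integrin chain of osteoclast attachment, also made by platelets, had -1.09, -0.59, -1.73 and -1.55 and was thus lower in both transgenic arrays, as *Acp5* was. *Ocstamp*, a fusion factor, and *Traf6*, the adaptor of RANK, lay -0.08 and -0.04 from the mean of the other arrays in transgenic mice with DT. *Mmp9*, a protease of osteoclasts and neutrophils, was above background on both wild-type arrays and on 0 of the transgenic arrays, with normalized signals of -4.98 and -4.20 in untreated and DT-treated wild-type mice (also named after its values were seen).

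**Figure D3:**
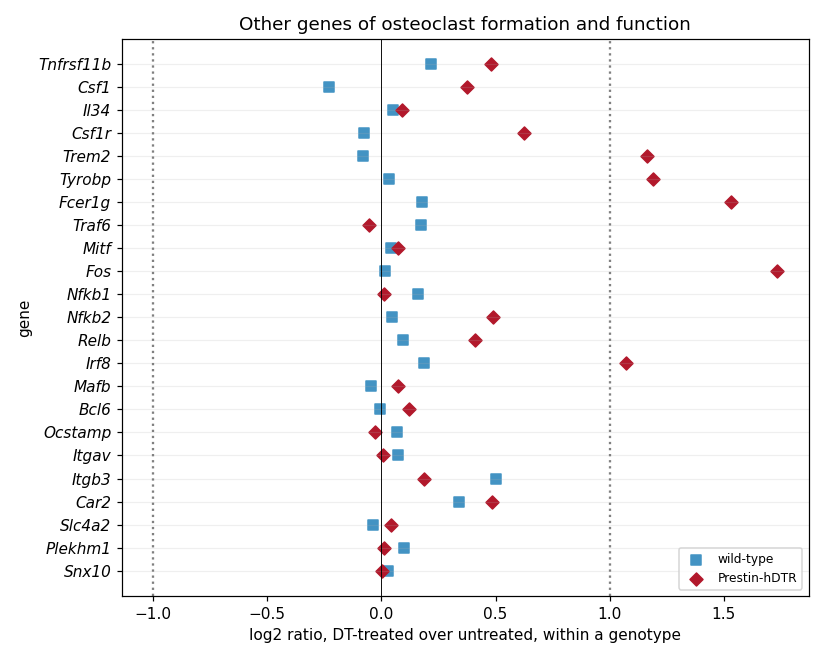
Log2 ratio of DT-treated over untreated mice (x axis) in wild-type (squares) and transgenic mice (diamonds) for the 23 other genes of osteoclast formation and function above background on all arrays (y axis). Dotted lines mark 2-fold. The diamonds of *Fos*, *Fcer1g*, *Tyrobp*, *Trem2* and *Irf8* lie past 2-fold, and no square does.

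Neither the higher signals of macrophage genes nor the lower signals of bone genes in transgenic mice with DT were seen across the osteoclast genes. Of the 8 genes above background on all arrays, 3 (*Tcirg1*, *Ostm1* and *Tnfrsf11a*) were highest and 2 (*Acp5* and *Ctsk*) were lowest in transgenic mice with DT, where 35.0% and 33.5% of all gene names were. Among macrophage genes 17 of 20 were highest there and 2 lowest, and among genes of osteoblasts and osteocytes 2 of 17 were highest and 13 lowest. The wider list of osteoclast formation and function leaned upward, unlike the osteoclast genes themselves, with 17 of 23 genes highest there and 1 lowest. Both transgenic arrays were below both wild-type arrays for 3 of 8 osteoclast genes (*Acp5*, *Ctsk* and *Oscar*), 1 of 20 macrophage genes and 13 of 17 bone genes, against 13.7% of all gene names. For *Ctsk* and *Oscar* the gap between the lower wild-type and the higher transgenic array was less than the SD between spots, so this count rests on *Acp5* alone. The macrophage and bone lists were chosen with earlier results of these data known and are not independent evidence of their direction.

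Within the transgenic line, with DT against without, the median log2 ratio was 0.05 over 8 osteoclast genes, 1.08 over 21 macrophage genes, of which 12 were called up (background 2.76%), and -0.11 over 18 bone genes, of which 0 were called down (background 1.39%). Against wild-type mice with DT the medians were -0.06, 0.79 and -0.35, with 6 of 21 macrophage genes called up (background 1.55%) and 3 of 17 bone genes called down (background 1.93%). Against untreated wild-type mice, 7 of 21 macrophage genes were called up (background 2.13%) and 1 of 18 bone genes was called down (background 2.01%). The osteoclast median lay 1.03 below the macrophage median in the first of these contrasts and 0.85 below it in the second, and it lay 0.16 and 0.29 above the bone median. With the untreated wild-type array as base, the osteoclast median in transgenic mice with DT was -0.08, and it was 0.07 over the 8 genes above background on all arrays, and no direction is given for the osteoclast medians. Summed over 20 macrophage genes, the signal relative to the 75th percentile ran from 20.2 without DT to 35.3 with DT in transgenic mice and lay between these in both wild-type groups. This sum too rests mostly on the brightest genes, with a highest normalized signal of 3.33 and a median of -0.13 in transgenic mice with DT. Of 22 listed markers, 1, *Cd163*, was at background on all arrays.

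*Lyz2*, lysozyme of macrophages and neutrophils, had normalized signals of -0.94, -0.61, -1.41 and 0.70, and *Cd68*, a lysosomal protein of macrophages that osteoclasts also carry, was higher by 1.47 on the log2 scale with DT than without in transgenic mice and by 0.04 in wild-type mice. *Ms4a7*, *Adgre1* and *C1qb* rose by 1.41, 1.20 and 1.24 on the log2 scale over transgenic mice without DT. In the same contrast 2 of 21 macrophage genes were lower, *Itgam* with a log2 ratio of -0.23 and *Mertk* with -0.04. *Bglap*, osteocalcin of osteoblasts, had normalized signals of 2.54, 2.91, 2.27 and 1.45, and *Col1a1*, the main collagen chain of bone, had 2.50, 2.75, 1.98 and 1.51, both lowest in transgenic mice with DT. *Col1a2* and *Spp1* were 0.21 and 0.44 above the mean of the other arrays in transgenic mice with DT, so the bone list did not move as one. In transgenic against wild-type mice, both without DT, *Acp5* had a log2 ratio of -1.52, where the macrophage median was -0.21 (19 of 21 genes lower) and the bone median -0.17 (16 of 18 lower). Over all gene names the median there was -0.016, with 11567 of 21114 lower. The size of the *Acp5* step without DT was not particular to it. The macrophage gene *Cybb*, an oxidase subunit of phagocytes named after its values were seen, had -1.90 in the same contrast, from a dim normalized signal of -4.89 in transgenic mice. With DT, *Acp5* had -1.34 between the genotypes and *Cybb* 0.51, so *Cybb* did not share the lower signal of both transgenic arrays. None of these differences was tested.

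**Figure D4:**
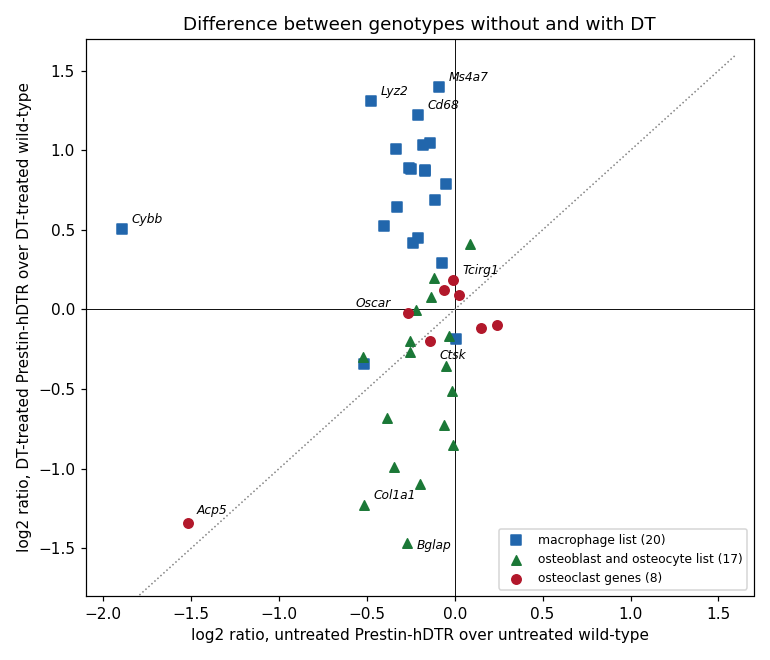
Log2 ratio of transgenic over wild-type mice without DT (x axis) and with DT (y axis), for genes above background on all 4 arrays; the 2 axes share no array, and the dotted line marks equal ratios. Macrophage genes (squares) lie mostly above 0 on the y axis, bone genes (triangles) mostly below 0, and of the 8 osteoclast genes (circles) *Acp5* lies near the dotted line at -1.52 and -1.34, with the other 7 near the origin.

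Genes with the course most like that of *Acp5* were sought by the root mean square (RMS) difference of centred log2 signals over the 4 arrays, among 18125 genes, as a description. The closest was the transcript *AK036976*, with an RMS difference of 0.010 and normalized signals of 5.02, 4.62, 3.50 and 3.29, on chromosome 18. Next came *Dcaf12l2*, with 0.095, and *AK037412*, with 0.18. Genes of the macrophage, bone, neutrophil and other lists were left out of this search, so it cannot show whether a listed gene has such a course. For *Ctsk* the closest were *Tyw3*, *Plekha5* and *Ank2*, with RMS differences from 0.0031 to 0.0062, and such flat courses over 4 arrays are shared by many genes.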

How the data were processed

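Cochlear RNA was hybridised to Agilent mouse arrays of 1 colour (Cy3), with 1 array per group and all 4 arrays on 1 slide, so the slide does not differ between groups. Per the labels, the authors ran Agilent Feature Extraction 11.5.1.1. The authors deposited 1 linear intensity per spot, unscaled between arrays. The background that the software had subtracted equalled its additive spatial trend surface on every spot (largest difference 0), and dim spots carry a surrogate value. The intensity of mean and background per spot served 1 alternative. A deposited value table has that intensity over a constant of each array. Probe positions are those of the array files (mm9).

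Control spots and outlier spots were left out, spots of a probe were averaged, a flag was taken to hold when more than 0.5 of the spots had it, and log2 of the intensity was set against the 75th percentile of the array. A probe entered a comparison when well above background on at least 1 of its arrays, and a gene was represented by its brightest such probe. Calls were made at 2-fold, in 5 comparisons. No test was made with 1 array per group. A fit with additive effects of genotype and DT, which would leave 1 residual degree of freedom and assume no interaction, was not run. 8 alternatives were tried. The members and the 11 lists (144 genes, 2 of them matched through a synonym) were chosen with earlier results of these data known. Named genes were all members, *Tnfsf11*, *Tnfrsf11b*, *Csf1* and *Csf1r*, the 3 highest and 3 lowest of the pathway, macrophage, bone and related-gene lists by log2 ratio of the DT-treated *Prestin*-*hDTR* array to the mean of the rest among genes above background on all arrays, genes 2-fold beyond all others there, and the 3 genes most like *Acp5* and *Ctsk*. The rule also took *Sp7*, *Clcn5*, *Clcn6* and *Atp6v0a4*, which had -0.004, -0.27, -0.32 and 0.28 by that log2 ratio and are not described above. Names outside the rule are marked as chosen after values were seen, stand for a count of 5 or fewer (*Spi1*, *Src*, *Cd163*), or belong to the set of probes with a gap between genotypes. The steps were tested on simulated data. Normexp (offset 50) was run with limma 3.58.1 in R 4.3.3, and the rest with numpy 2.4.6 and pandas 2.3.3 in Python 3.11.15. Promoter windows came from RefSeq (GRCm38.p6). The qRT-PCR and histology were not analysed here.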

Additional observations from a re-analysis of the deposited data

Results flagged for a closer look

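Among 74 genes above background on all arrays, namely the osteoclast genes, those of the wider pathway, macrophage and bone lists and the other genes named by rule, 9 moved with DT in opposite directions in the 2 genotypes, by more than 0.20 on the log2 scale in each. None of the 8 osteoclast genes was among them. The difference of the log2 DT effects, *Prestin*-*hDTR* minus wild-type, was below 0 for 4 bone genes, with -1.20 for *Bglap* (-0.82 and 0.38), -0.90 for *Bglap2* (-0.67 and 0.23), -0.72 for *Col1a1* (-0.47 and 0.25) and -0.50 for *Mepe* (-0.22 and 0.28). It was above 0 for the macrophage genes *Cybb*, at 2.40 (1.36 and -1.04), *Ctss*, at 1.34 (-0.24 in wild-type mice), *Aif1*, at 1.04 (0.83 and -0.22), and *Fcgr1*, at 0.93 (0.58 and -0.35), and for *Csf1*, at 0.61 (0.38 and -0.23). Each group has 1 array, so the difference was not tested.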

How the results depend on the processing

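Across 8 alternatives, 0 called values changed sign. Of 288 medians and distances between medians, 10 changed sign, each at most 0.075 from zero on the log2 scale before and after, and no direction is drawn from these. Counts of called osteoclast genes kept within 1.5 times in 72 of 80 cases, medians and gaps moved by less than the spot SD in 261 of 288, and ratios of single osteoclast genes in 326 of 362. *Acp5* stayed 1.46 to 1.52 (untreated) and 1.53 to 1.76 (DT-treated) below untreated wild-type on the log2 scale in *Prestin*-*hDTR* mice. No paired analysis was possible because each group has 1 array and the labels carry no replicate numbers, and leaving out an array was not an option for the same reason. Depth here is signal over background, which limits *Atp6v0d2* and *Calcr* to bounds.

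Called down against untreated wild-type mice were 1 gene in untreated *Prestin*-*hDTR* mice with probes above background on all 4 arrays, 1 with normexp, and 2 in DT-treated wild-type and 3 in DT-treated *Prestin*-*hDTR* mice without the floor or without the filter. Without the filter, DT-treated *Prestin*-*hDTR* against DT-treated wild-type mice gave 1 up and 2 down. These changes come from *Atp6v0d2* and *Calcr* at background.

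With probes above background on all 4 arrays, the medians in DT-treated *Prestin*-*hDTR* mice were 0.073 for osteoclast genes against untreated wild-type and 0.19 for the wider list against the mean of the other 3 arrays. The osteoclast median then lay 0.16 above the bone median in untreated *Prestin*-*hDTR* mice, and -0.73 from the macrophage and 0.31 from the bone median in DT-treated ones, all against untreated wild-type. Quantile normalization gave 0.024 for osteoclast genes in DT-treated and -0.084 for bone genes in untreated *Prestin*-*hDTR* mice against untreated wild-type, with distances from the bone median of -0.010 (untreated) and 0.25 (DT-treated) and from the macrophage median of -0.80 (DT-treated). Without the filter, medians were -0.029 for osteoclast genes and 0.28 for the wider list against untreated *Prestin*-*hDTR*, -0.062 for osteoclast genes against the mean of the other 3 arrays, and -0.43 for bone genes against DT-treated wild-type, with distances of 0.37 from the bone median against DT-treated wild-type, 0.082 against untreated *Prestin*-*hDTR*, and -0.94 (macrophage) and 0.27 (bone) against the mean of the others. Without the floor, the osteoclast median was -0.062 and its distances -0.94 and 0.27 against that mean, and the macrophage median was 0.87, at a distance of -0.93, against DT-treated wild-type. Normexp gave 1.01 for macrophage genes and a distance of -0.93 against untreated *Prestin*-*hDTR*, and 0.28 from the bone median against the mean of the others. The mean of all probes of a gene gave 0.23 for the wider list against untreated wild-type.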
